A study of Mus musculus with 7 samples.

Results

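The 8 genes examined encode the enzymes that make collagen able to cross-link: the lysyl oxidases Lox, Loxl1, Loxl2, Loxl3 and Loxl4 and the lysyl hydroxylases Plod1, Plod2 and Plod3. They were chosen by name as the members of both enzyme families. Of the 8, 7 were measured by a probe set that names 1 gene, and all 7 passed the filter on low signal, among 13938 genes that did so. The only probe set of Loxl2 also names Gm21451, so no value is given for Loxl2.

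Lysyl hydroxylases act in the endoplasmic reticulum, where they add a hydroxyl group to chosen lysines of newly made collagen chains. Lysyl oxidases are copper enzymes that act outside the cell, where they turn lysines and hydroxylysines of collagen and elastin into aldehydes that react into covalent cross-links. Hydroxylation of lysines in the collagen telopeptides, for which Plod2 is known, sets which kind of cross-link forms, and the hydroxylysine-derived kind is the one typical of bone.

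Long bones were taken from male mice at 39 to 41 weeks of age, freed of marrow, cut into pieces and taken through repeated collagenase and EDTA steps to enrich for osteocytes, the cells buried in bone matrix. There were 3 knockout mice, labelled DMP1 cre Mbtps1 knockout, and 4 control mice, labelled wildtype and described as littermates, each with its own array. Dmp1-Cre is active mainly in osteocytes and late osteoblasts, so other cells of the bone would largely keep Mbtps1, which these arrays cannot show. The product of Mbtps1, site-1 protease or S1P, cuts membrane-bound transcription factors in the Golgi. Whether the controls carried Cre or a floxed allele is not stated in the labels.

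The deposited values are array intensities on a linear scale, with array medians between 87.3 and 107.7. With 7 arrays, all estimates are coarse. Mbtps1 itself read 162, 149, 131 and 152 in controls 1 to 4 and 115, 107 and 154 in knockouts 1 to 3. Knockout 3 lay within the control range, and the difference did not pass the test (limma log2 fold change -0.23, SE 0.14, adjusted p = 0.807), so this probe set does not check the label of every knockout. The markers Dmp1 and Mepe were measured on all arrays, but so were marrow genes: the means of 8 neutrophil markers lay between 11.8 and 12.03 on the log2 scale. Log2 fold changes are knockout minus control on the scale log2(intensity + 16), with the standard error (SE) from limma, and they understate the changes of genes with low signal. In bulk tissue, fewer cells of a type and less RNA per cell cannot be told apart.

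Lox and Plod2 read lower in knockout bone, and the other 5 measured enzymes did not differ by an amount these arrays could show. Lox, the founding lysyl oxidase, was 44.9% lower in mean intensity, and Plod2, the telopeptide lysyl hydroxylase, was 59.9% lower. In both, every knockout lay below every control. Neither passed a Benjamini-Hochberg adjusted p of 0.05 over all genes in limma, and no other gene did either (0 of 13938, or 0%, against 904 genes at an unadjusted p under 0.05). At an unadjusted p under 0.05, 2 of the 7 measured enzymes were lower and none higher, where 6.49% of all genes tested passed that threshold, 2.71% lower and 3.77% higher. Groups did not overlap in the same 2 enzymes, where 7.99% of all genes tested had groups apart, 2.76% lower and 5.22% higher in knockouts. The median log2 fold change of the 7 enzymes was -0.03, beside 0.07 over all genes tested.

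**Figure D1:**
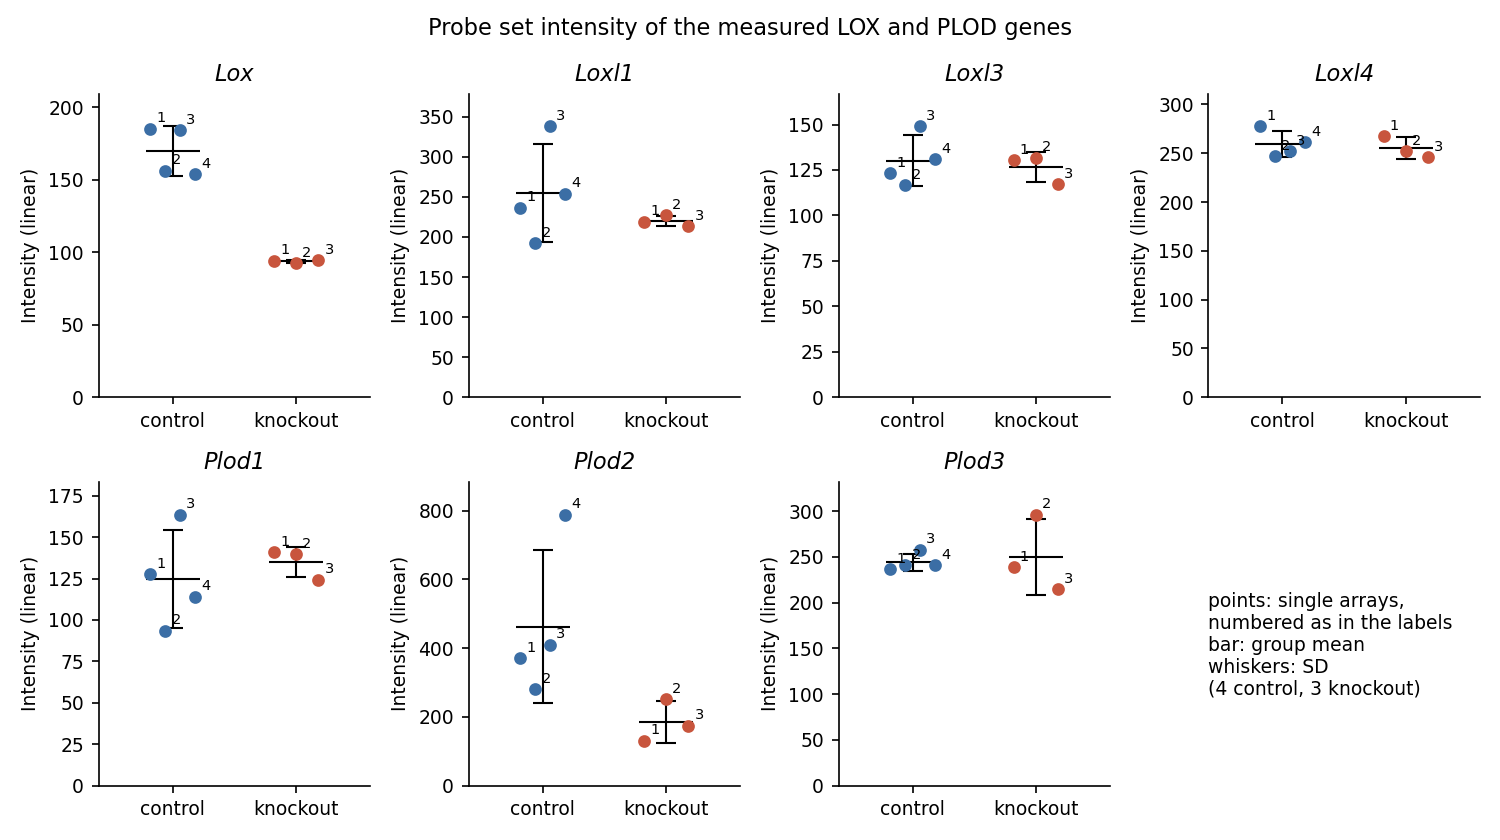
Intensity (linear scale, from 0) of each measured lysyl oxidase and lysyl hydroxylase gene in 4 control and 3 knockout arrays; points are single arrays with their label numbers, bars are group means and whiskers SD. The 3 knockouts lie below all 4 controls for Lox (92.5 to 94.3 against 154 to 185) and Plod2 (131 to 251 against 282 to 789), and the groups overlap for the other 5 genes.

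Lox read 185, 156, 184 and 154 in controls 1 to 4 and 94.3, 92.5 and 94.3 in knockouts 1 to 3. The knockouts lay close together, with a standard deviation of 1.04 intensity units against 17.1 in the controls. On the log2 scale the knockout standard deviation was 0.01, and 1.31% of genes tested had one as small. The log2 fold change was -0.76 (SE 0.12, 95% interval -1.01 to -0.50), a 1.69-fold difference on that scale. Lox ranked 2 of 13938 by unadjusted p (2.37e-05) but had an adjusted p of 0.165 in limma. The two-sided exact permutation test over the 35 splits of the arrays gave p = 0.0286, the smallest it can give. The log2 fold change stayed between -0.80 and -0.72 with each array left out in turn, while the adjusted p ran from 0.0179 without control 4 to 0.9999 without knockout 1.

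The knockout and control difference of Lox was then set against that of each other measured enzyme, by subtracting the log2 value of the other gene from that of Lox on the same array. There were 6 such pairs. Against Loxl3, a lysyl oxidase with scavenger receptor domains, the difference was 0.35 ± 0.14 in controls and -0.38 ± 0.09 in knockouts (SD, n = 4 and 3). Against Loxl4, of the same subgroup, it was -0.57 ± 0.12 in controls and -1.30 ± 0.06 in knockouts. Lox stood 0.72 and 0.73 log2 units lower in knockouts relative to these paralogs. In both pairs no knockout overlapped a control (two-sided exact permutation p = 0.0286, or 0.0429 adjusted over the 6 pairs). All 6 pairs share Lox, which was set against the others with its values known. Lox alone already gave the smallest p this test can give, so the pair p-values are not independent of that result or of each other.

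Loxl1, the paralog closest to Lox in its domain layout and known for elastin, gave a smaller shift. Lox minus Loxl1 was -0.33, -0.27, -0.82 and -0.67 in controls 1 to 4 and -1.09, -1.16 and -1.06 in knockouts 1 to 3. The groups did not overlap, but the shift of -0.58 gave an exact permutation p of 0.0571 (0.0685 adjusted over the 6 pairs). Against the lysyl hydroxylases Plod1 and Plod3 the shifts were -0.88 and -0.78, each with an exact permutation p of 0.0286 (0.0429 adjusted). Against Plod2 the shift was 0.43 with overlapping groups (exact permutation p = 0.429), so a difference between the responses of Lox and Plod2 was not shown.

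**Figure D2:**
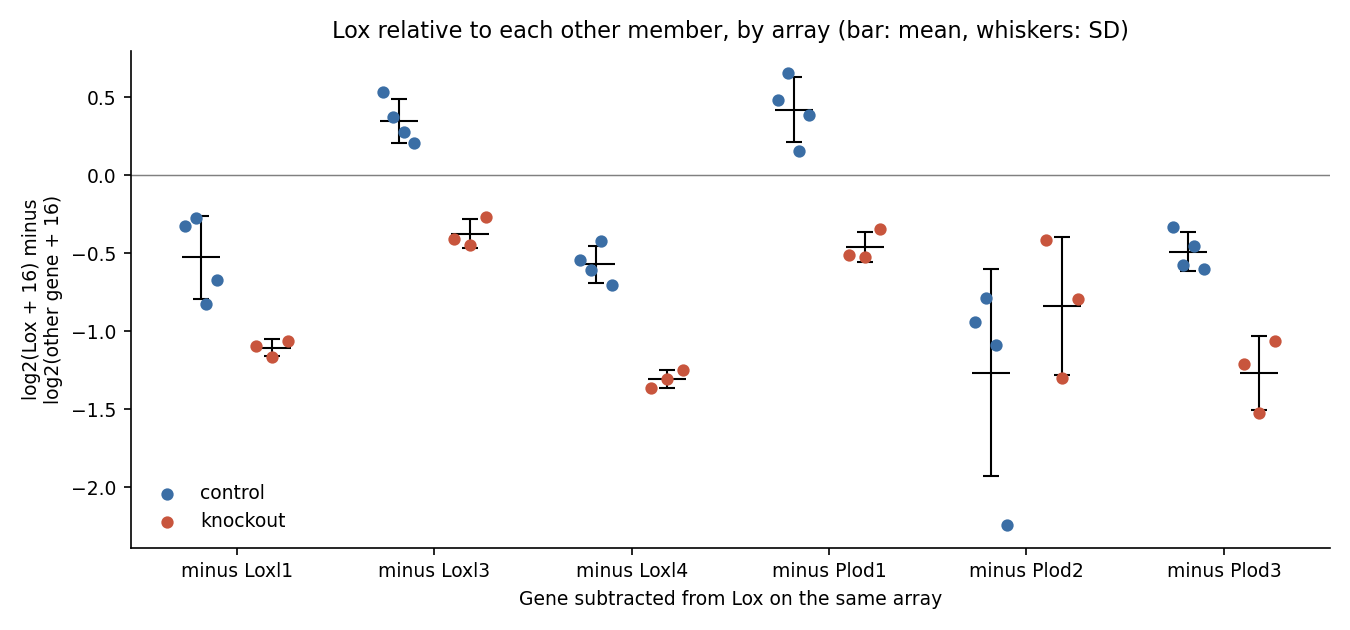
Log2 value of Lox minus that of each other measured enzyme on the same array (y axis, log2 units), for 4 control and 3 knockout arrays; points are arrays, bars means and whiskers SD. Knockouts lie below all controls in each pair except Lox minus Plod2, where control 4 lies lowest at -2.24.

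Among the other lysyl oxidases, Loxl1 read 236, 192, 338 and 254 in controls 1 to 4 and 219, 227 and 214 in knockouts 1 to 3. All 3 knockouts lay inside the control range, which control 3 extended upward. The log2 fold change of Loxl1 was -0.18, with a 95% interval from -0.54 to 0.19. Loxl3 read 123, 117, 149 and 131 in controls and 130.5, 132 and 117 in knockouts, with an interval from -0.29 to 0.23. Loxl4 read 278, 247, 252 and 261 in controls and 268, 252 and 246 in knockouts. Its interval ran from -0.29 to 0.24. The fitted log2 fold changes of Loxl3 (-0.03) and Loxl4 (-0.02) were small beside their SE of 0.12. A second probe set of Loxl4, under the filter on low signal, read 51.8 to 74.5 in controls and 49.8 to 57.0 in knockouts and also overlapped. The interval of Loxl1 meets that of Lox (-1.01 to -0.50), and those of Loxl3 and Loxl4 do not.

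Among the lysyl hydroxylases, Plod2 stood apart. It read 371, 282, 410.0 and 789 in controls 1 to 4 and 131, 251 and 175 in knockouts 1 to 3. The groups were separated by a narrow gap between control 2 (282) and knockout 2 (251), and control 4 lay far above the other controls. The log2 fold change was -1.19 (SE 0.29, 95% interval -1.81 to -0.56), and 0.0933% of genes tested were as far below 0. The unadjusted limma p was 0.00132 and the adjusted p 0.559. The two-sided exact permutation p was 0.0571. Without control 4 the log2 fold change was -0.90 and the adjusted p 0.0980, and without controls 3 and 4 it was -0.79. Plod2 was the most variable of the 7 enzymes, with a standard deviation of 48.3% of the mean in controls and 32.7% in knockouts.

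Plod1, which hydroxylates lysines in the collagen helix, read 128, 93.5, 164 and 114 in controls 1 to 4 and 141, 139.7 and 124 in knockouts 1 to 3. Every knockout lay within the control range (log2 fold change 0.12, 95% interval -0.21 to 0.46). Plod3, which also glycosylates hydroxylysine, read 237, 241, 258 and 241 in controls and 239, 296 and 215 in knockouts. Here the controls were close together and the knockouts spread to both sides of them (log2 fold change 0.02, 95% interval -0.28 to 0.32, and -0.04 after median centring). Plod2 minus Plod1 on the same array was 1.43, 1.44, 1.25 and 2.63 in controls 1 to 4 and -0.09, 0.78 and 0.44 in knockouts 1 to 3. Plod2 minus Plod3 was 0.61, 0.21, 0.64 and 1.65 in controls and -0.79, -0.23 and -0.28 in knockouts. In both, all knockouts lay below all controls, a description with no test, since these pairs were picked after the values were seen.

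RefSeq promoter windows (GRCm38.p6, 250 bases before to 50 after the start site) were examined for 3 of the 8 genes, Loxl4, Plod1 and Plod3. The choice of member windows left out the chromosome of Lox. The windows of Plod1 and Plod3, sister genes of Plod2 that did not share its lower signal, are shown. No window of Plod2 or Lox was examined, so the matches could not be compared with those of the lower genes. The windows were searched on both strands for ACGTG and GCGTG, the core forms bound by hypoxia-inducible factor. They were also searched for TGACG, which overlaps ACGTG in the longer site of ATF6, a factor that S1P cuts. Capitals mark ACGTG alone. The Plod1 window lies at chr4:147936727-147937026 on the minus strand and the Plod3 window at chr5:136986769-136987068 on the plus strand, both written 5′ to 3′ along the gene.
Plod1 promoter: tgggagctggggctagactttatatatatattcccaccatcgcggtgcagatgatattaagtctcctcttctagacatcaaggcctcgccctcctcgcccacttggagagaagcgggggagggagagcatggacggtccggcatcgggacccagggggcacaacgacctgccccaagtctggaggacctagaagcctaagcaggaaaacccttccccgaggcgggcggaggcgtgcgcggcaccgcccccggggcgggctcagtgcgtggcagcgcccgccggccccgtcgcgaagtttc
Plod3 promoter: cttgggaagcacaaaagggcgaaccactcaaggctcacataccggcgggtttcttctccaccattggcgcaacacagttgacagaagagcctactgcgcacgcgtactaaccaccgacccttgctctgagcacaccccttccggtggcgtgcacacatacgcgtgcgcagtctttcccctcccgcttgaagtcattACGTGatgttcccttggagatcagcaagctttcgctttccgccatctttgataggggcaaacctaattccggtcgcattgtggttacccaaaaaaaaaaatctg
Plod3 held 1 ACGTG, which begins 54 bases before the start site, and 3 GCGTG. Plod1 held 2 GCGTG, and Loxl4 held 1 GCGTG and 1 TGACG. Of 32851 windows of 300 bases, 19.6% held ACGTG, 32.4% GCGTG and 20.8% TGACG, so a match is common and says only that the letters are there.

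Most osteocyte markers read lower in knockouts, as did Lox and Plod2. Of the 13 osteocyte markers, 8 were lower and 1 higher at an unadjusted p under 0.05, beside 2.71% and 3.77% of all genes tested, and 0 passed the adjusted threshold. The marker lists, this one included, were chosen with earlier results of these data known, so their counts and means are descriptions. Their mean log2 level lay between 8.48 and 9.42 in controls and between 7.99 and 8.27 in knockouts. Plod2 followed this mean closely: ordered by osteocyte marker mean, the 7 arrays were also in order of Plod2, apart from controls 1 and 3, which changed places. Control 4 had the highest osteocyte mean (9.42) and the highest Plod2. Lox did not follow it within the controls, where control 4 had the lowest Lox (154). Relative to the osteocyte marker mean of the same array, Plod2 was 0.01 ± 0.24 in controls and -0.51 ± 0.29 in knockouts (SD), with control 2 (-0.26) below knockout 2 (-0.21). Lox relative to the same mean was -1.07, -1.05, -0.90 and -2.01 in controls 1 to 4. In knockouts 1 to 3 it was -1.20, -1.51 and -1.33, so that only control 4 lay below the knockouts. The group means for Lox were -1.26 ± 0.51 in controls and -1.35 ± 0.15 in knockouts (SD), a difference of -0.09. The part of the osteocyte marker level in the lower Lox and Plod2 was not tested beyond these values.

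**Figure D3:**
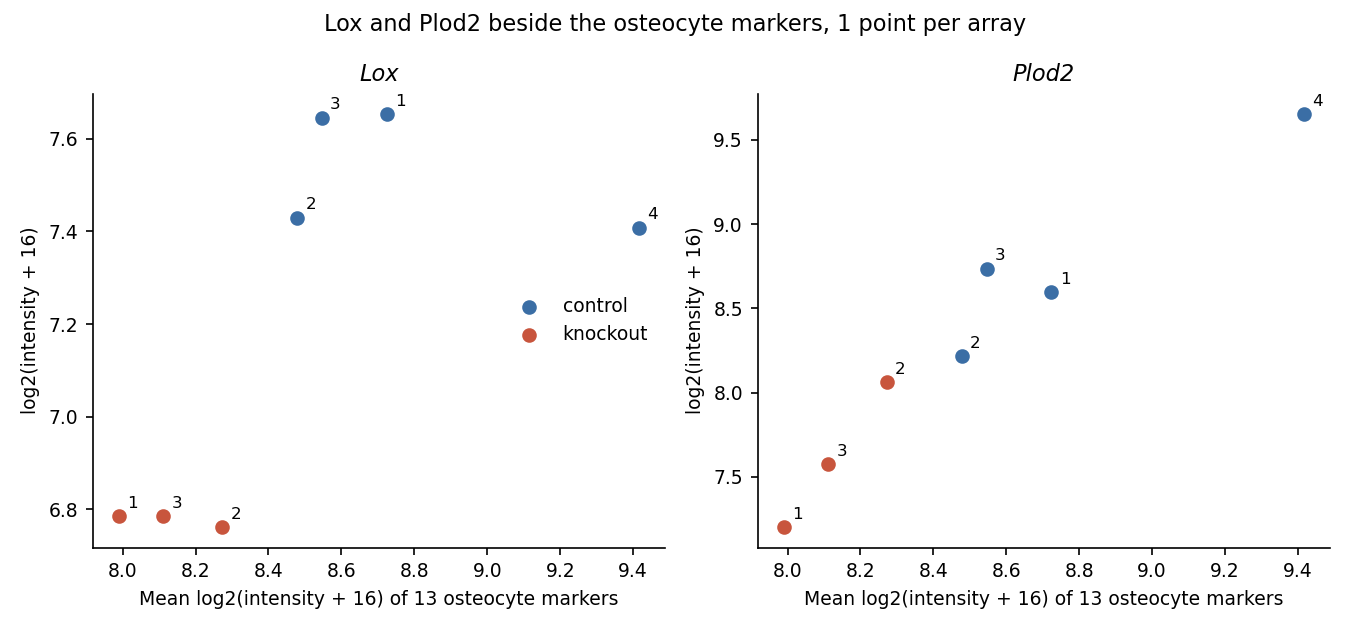
Log2(intensity + 16) of Lox (left) and Plod2 (right) against the mean of 13 osteocyte markers on the same array (both axes log2), 1 point per array, numbered as in the labels. Plod2 is higher on arrays with a higher osteocyte marker mean, up to control 4 at 9.42, while the 3 knockouts sit together at the bottom for Lox.

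Single markers of other cell types also differed. Of 12 marker lists, the osteocyte list was the only one whose array means did not overlap between the groups. Of 6 measured osteoblast markers, 2 were lower at an unadjusted p under 0.05, with array means from 7.78 to 8.63 in controls and from 7.82 to 8.15 in knockouts. Fibroblast and tendon markers, genes of another cell type in which Lox is abundant, had array means from 7.46 to 7.69 in controls and from 7.59 to 7.69 in knockouts. Of the 10, 4 were under the filter, among them the tendon markers Tnmd and Mkx, and 1 of the other 6 was lower. This list leaves out matrix genes that fibroblasts and tendon also express in abundance and that stand on other lists: Dcn (-0.82), Lum (-0.72), Postn (-0.83) and Comp (-0.82) were lower at an unadjusted p under 0.05, and Fmod gave -0.44 without passing.

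At the same threshold 2 of 8 endothelial markers were lower: Emcn, endomucin (-0.58), with groups apart, and Tek (-0.26), with overlapping groups. Cdh5 (-0.22) did not pass, but its groups were also apart. Of the 8, 3 lay above 0, among them Vwf (0.41), and the list median was -0.04. Over all genes tested, 2.71% were lower and 3.77% higher at that threshold, and groups were apart in 2.76% lower and 5.22% higher. Of 6 smooth muscle and pericyte markers, 1 was lower, the pericyte gene Rgs5 (-0.56). Of 5 chondrocyte markers, 1 was lower, Comp, and of 7 adipocyte markers, 1, the lipid droplet gene Cidec (-0.93). Of 8 neutrophil markers, 2 were lower and 3 had groups apart. Of 7 B cell markers, 2 were higher and all 7 lay above 0, and 1 of 6 osteoclast markers was higher. None of 6 skeletal muscle and none of 4 erythroid markers was called. The median log2 fold change was -0.91 for the osteocyte list and -0.33 for the osteoblast list, where 5 of 6 markers lay below 0. The medians of the other marker lists ran from -0.20 (adipocyte) to 0.40 (B cell). The genes named from marker lists were picked with their values known, and the part of these cell types in the lower Lox and Plod2 was not tested.

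To place both enzymes in their pathway, 70 further genes on 8 lists were examined. Of these, 66 had a probe set that names 1 gene and 58 passed the filter on low signal; counts on these lists are over the genes that passed. At an unadjusted p under 0.05, 10 of the 58 (17.2%) were lower and 0 higher, beside 2.71% lower and 3.77% higher among all genes tested, and none passed the adjusted threshold. The 10 lower genes were 5 of 10 matrix partners of LOX, 2 of 10 partners of the hydroxylases, and 1 each among the prolyl 4-hydroxylases, the HIF-1 targets and the TGF-beta targets. The lists were chosen with earlier results of these data known, and the difference between lists was not tested.

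**Figure D4:**
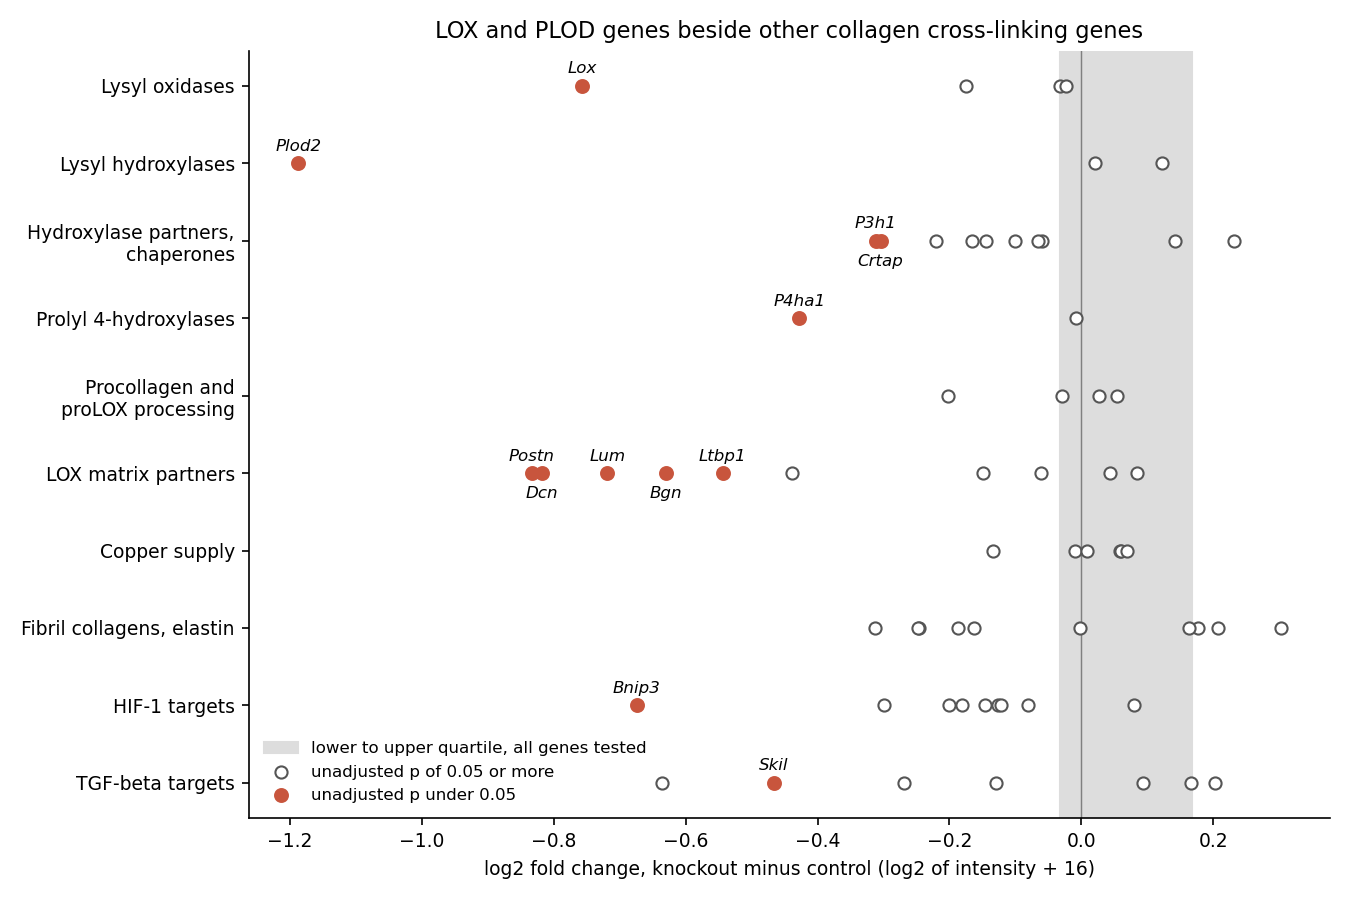
Log2 fold change (knockout minus control, x axis) of every measured gene on the member lists and 8 related lists (rows); filled points have an unadjusted limma p under 0.05 and are named, and the grey band spans the lower to the upper quartile of all genes tested. Lox, Plod2 and 5 matrix partners of LOX are the filled points beyond -0.5 together with Bnip3.

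Matrix partners of LOX, proteins that bind it or lie with it on collagen fibrils, had a median log2 fold change of -0.49 over 10 measured genes. Dcn, the fibril-coating proteoglycan decorin, read 1168, 1007, 1718 and 1943 in controls 1 to 4 and 818, 923 and 657 in knockouts 1 to 3. Lum, its relative lumican, read 336, 262, 517 and 373 in controls and 246, 246 and 159 in knockouts. Bgn, biglycan, lay between 1467 and 1982 in controls and between 1023 and 1232 in knockouts. In each of these proteoglycans every knockout lay below every control, with log2 fold changes of -0.82, -0.72 and -0.63 and limma adjusted p of 0.605, 0.638 and 0.559. Postn, periostin, which helps the protease BMP1 to activate LOX, read 399, 385, 560 and 342 in controls and 220.2, 299 and 174 in knockouts (log2 fold change -0.83). Ltbp1, which holds latent TGF-beta in the matrix, was also separated (-0.54). Fmod, fibromodulin, which binds LOX to collagen, read lower without passing (-0.44) and its groups overlapped, and Fn1, fibronectin, gave -0.06. The count of 5 was between 4 and 6 in all settings run.

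Among partners and chaperones of the collagen hydroxylases, lysyl and prolyl, 2 of 10 measured genes were lower. Crtap and P3h1, subunits of the collagen prolyl 3-hydroxylase complex, gave -0.30 and -0.31, each with knockouts below all controls. Ppib, the third subunit, gave -0.07, and Serpinh1, the collagen chaperone HSP47, gave -0.22 without passing. P3h3 (-0.06) and P3h4 (-0.17) did not pass either. Fkbp14 was under the filter on low signal, and no value is given for Fkbp10. The count of 2 became 1 without control 1, and 0 without control 3, without any 1 of the 3 knockouts, or without controls 3 and 4 together. P4ha1, a prolyl 4-hydroxylase subunit, gave -0.43 at an unadjusted limma p of 0.0472, and P4hb gave -0.01. The P4ha1 call did not hold without control 2, control 4, knockout 1 or knockout 3, each left out alone. It was also lost with quantile normalization, with unmoderated variances and with the replicate number as a block.

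Genes that activate LOX and supply its copper gave no call. Bmp1, the protease that removes the LOX propeptide, read 212 ± 40.5 in controls and 213 ± 19.2 in knockouts (SD), and its enhancer Pcolce gave -0.20. None of 4 measured processing genes and none of 6 copper genes reached an unadjusted p under 0.05. Atp7a, the pump that loads copper into secreted enzymes, gave -0.01, Atox1 0.06 and the importer Slc31a1 -0.13.

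Among the substrates, none of 10 fibril collagen and elastin genes reached an unadjusted p under 0.05, with a median log2 fold change of -0.08. Col1a1 read 1574, 738, 1909 and 729 in controls 1 to 4 and 1085, 1108 and 807 in knockouts 1 to 3, so that the controls spread beyond the knockouts on both sides. The log2 fold change of Col1a1 was -0.19 (95% interval -0.84 to 0.46). Col1a2 also overlapped (log2 fold change -0.31, SE 0.25, 95% interval -0.86 to 0.23). Both intervals include the -0.76 of Lox, and the difference from Lox was not tested. Eln, elastin, gave 0.30 (SE 0.15). The count of 0 became 3 without control 4, 2 without control 2, 2 with array weights, 1 with quantile normalization, 1 without controls 3 and 4, and 4 with the replicate number as a block.

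Lox, Plod1, Plod2 and P4ha1 are known targets of hypoxia-inducible factor, and Lox is also induced by TGF-beta. Of 9 measured HIF-1 targets outside collagen metabolism, 1 was lower. This was Bnip3, a mitophagy receptor, at 230, 220, 289 and 573 in controls 1 to 4 and 156, 199 and 201 in knockouts 1 to 3, and a second probe set gave -0.96 in place of -0.67. Pdk1 (-0.20, groups apart), Egln3 (-0.18), Slc2a1 (-0.13), Ldha (-0.12), Vegfa (-0.08) and Pgk1 (0.08) did not pass. Of the 9, 8 had a log2 fold change below 0, with a median of -0.15, and the array means of the list did not overlap, though by a narrow gap (at least 8.022 in controls and at most 8.016 in knockouts). Car9, the listed target under the filter, read 48.3 to 57.7 in controls and 61.7 to 67.4 in knockouts. The count of 1 became 3 with quantile normalization and 2 with median centring or without control 2, and the Bnip3 call was lost without knockout 1 and without controls 3 and 4. Of 7 measured TGF-beta targets, 1 was lower: Skil, a SMAD corepressor (-0.47), whose call was lost without knockout 1 and with unmoderated variances. The count of 1 became 2 with median centring, without control 2 and without knockout 2. The median of the 7 was -0.13, and it moved to -0.26 without control 2, -0.0094 without control 4 and 0.047 without controls 3 and 4. Ccn2, connective tissue growth factor, gave -0.64 with overlapping groups, and Tgfbi gave 0.20.

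The 6 genes whose log2 values over the 7 arrays were most like those of Lox, by Pearson correlation, were Cdkn1c (0.958), Il6st (0.956), Rnd3 (0.933), Igfbp7 (0.928), Maged1 (0.926) and Zfp810 (0.919). The arrays share the split between groups, and in all 6 genes every knockout lay below every control. After the group means were removed the correlations with Lox were 0.568, 0.324, -0.18, 0.349, 0.554 and 0.627, in the same order. Their log2 fold changes were smaller than that of Lox, from -0.47 (Rnd3) to -0.15 (Cdkn1c). Among the enzymes, the correlation with Lox over the 7 arrays was 0.723 for Plod2, 0.489 for Loxl1, 0.280 for Loxl4, 0.241 for Loxl3, -0.08 for Plod3 and -0.12 for Plod1. These are descriptions over 7 arrays, without a test.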

How the data were processed

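The members, gene lists and tests were chosen with earlier results of these data known. The authors deposited linear probe set intensities for 7 arrays. The submitters' processing notes name PLIER and version 1.4 of Affymetrix Expression Console. How background was corrected, whether arrays were normalized to each other and which genome build was used is not given in the sources used here. Array medians differ, so the deposited intensities do not share 1 distribution. Per the labels' protocols, 30 ng of RNA was labelled with a NuGEN kit. Nothing beyond the labels says how the mice were bred or which shared a litter. The p-values treat the mice as independent, which could not be checked.

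Gene names came from the platform annotation. Of 35556 probe sets, 21789 name 1 gene and were used, 1621 name several and 12146 are unnamed here. Each gene took its probe set with the highest mean, and genes whose mean log2 signal was under the 30th percentile of these probe sets (intensity 69.7) were left out. The symbols of the 7 measured members matched RefSeq by Entrez identifier.

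Values were analysed as log2(intensity + 16) in limma 3.58.1 (R 4.3.3, mean-variance trend, no covariates, 5 residual degrees of freedom), with Benjamini-Hochberg adjustment over 13938 genes. Confidence intervals are at 95%. Pairs were compared by two-sided exact permutation of the difference of means. Named list genes are up to 4 with the smallest p in each list that is not a marker list, and the other list genes were picked with their values known. The 6 genes most like Lox exclude clone, gene model and small RNA names. Apart from the results above, the limma fit was run on simulated data with independent normal errors and no array effects. The outcome is not given here. Figures used matplotlib 3.10.9 in Python 3.11.15.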

Additional observations from a re-analysis of the deposited data

Results flagged for a closer look

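In 74 sets of 4 control values examined, 2 had 1 control far from the others by Dixon's test at the 95% level, where chance flags about 1 in 20. Plod2 minus Plod1 had control 4 far above the others, at 2.63 against 1.25 to 1.44, a gap of 0.857 of the whole range. Colgalt1, a collagen galactosyltransferase, had control 4 far below the others, at 7.81 on the log2 scale against 8.21 to 8.28, a gap of 0.859 of the range.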

How the results depend on the processing

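Lox and Plod2 were lower, and were the 2 enzymes at an unadjusted p under 0.05, in all 19 alternatives run (offsets, normalization, filters, variance models, array weights, mean of probe sets, replicate block, left-out arrays). Lox ranged from -0.85 to -0.68. It passed the adjusted threshold with array weights (-0.76, adjusted p = 0.00690) and the replicate block (-0.80, adjusted p = 0.00306). With each array left out it ran from -0.80 to -0.72. Its adjusted p ran from 0.00306 to 0.9999 over all alternatives, and that of Plod2 from 0.0111, with the block, to 0.9999. Genes passing over all genes numbered 0, but 1 with median centring, 5 with array weights, 2 without controls 3 and 4, 78 with the replicate block, and 0 to 5 with each array left out. Deviations of same-numbered mice from their group means had correlations of 0.0685, 0.153 and -0.531, and those of differently numbered mice ran from -0.367 to 0.411. With so few arrays these values cannot decide whether the number is a pairing. The block also leaves out control 4, and leaving out control 4 alone gave 5 genes. Enzymes with separated groups numbered 2, or 3 (Loxl1 added) without control 2.

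Lox minus Loxl1, Loxl3, Loxl4, Plod1 and Plod3 stayed below 0 in all 14 alternatives run for pairs. Quantile normalization gave Lox minus Loxl1 -0.60 at an exact permutation p of 0.0286. Under the replicate block the shifts against Loxl3, Loxl4, Plod1 and Plod3 were -0.77, -0.78, -0.89 and -0.81, and without controls 3 and 4 they were -0.83, -0.73, -1.03 and -0.81. With each array left out they ran from -0.78 to -0.66, -0.78 to -0.68, -0.97 to -0.80 and -0.88 to -0.65. The exact permutation test cannot reach 0.05 with so few arrays (0.250, 0.100 and 0.0667 are the smallest p).

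The sign of small changes was not fixed. Plod3 gave -0.0079 after quantile normalization and -0.038 after median centring, Loxl3 0.012 with array weights, and without controls 3 and 4 Loxl1 gave 0.041 and Loxl3 0.066. With each array left out Loxl3 ran from -0.077 to 0.028, Loxl4 from -0.056 to 0.0084 and Plod3 from -0.10 to 0.12. The causes were not tested. All genes at an unadjusted p under 0.05 numbered 904, and 325 to 1867 over the alternatives. Array number limits the intervals of all enzymes.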
